A study of Homo sapiens with 6 samples.

Results

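The Polycomb, trithorax and SWI/SNF genes described here are 49 genes that encode subunits of chromatin complexes and the enzymes that oppose them. They were taken by gene symbol from a list of complex subunits, and all 49 had a row among the 61155 symbols of the count table. Of these, 45 passed the filter on low counts, as did 19521 symbols in all. The study asked how the absence of S6K1, the ribosomal protein S6 kinase encoded by RPS6KB1, alters the transcriptome of human embryonic stem cells (hESCs) before they are made into brain organoids. Bulk mRNA sequencing compared 3 WT libraries with 3 S6K1-/- libraries of H7, an established hESC line grown without feeder cells on Matrigel in TeSR-E8 medium. The S6K1-/- cells were made with Cas9 and guides against exons 9 and 11 of RPS6KB1 and were expanded from 1 clone, so that genotype and clone cannot be told apart. In the labels the S6K1-/- samples are called a knockdown, and all samples carry the time Week 5 together with the treatment undifferentiation, whereas the protocols describe a knockout and RNA from undifferentiated cells. No source states whether the 3 libraries of a group came from separate cultures, so the p-values measure only the spread between these libraries.

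Polycomb repressive complex 2 (PRC2) methylates lysine 27 of histone H3 (H3K27), and Polycomb repressive complex 1 (PRC1) ubiquitylates histone H2A and compacts chromatin. Both hold developmental genes such as the HOX clusters silent in embryonic stem cells. Trithorax group proteins act in the opposite direction: the KMT2 and SETD1 enzymes methylate lysine 4 of histone H3, the KDM6 enzymes remove methyl groups from H3K27, and the SWI/SNF (BAF) complexes use ATP to move nucleosomes.

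The libraries held from 21896698 to 24473013 counts in total, and the chi-square between replicates of a group, per degree of freedom, was 2.11 to 4.14 where counting noise alone gives about 1. RPS6KB1 was lower in all 3 S6K1-/- libraries, with 33.3 CPM in WT and 19.8 CPM in S6K1-/- hESCs (log2 fold change -0.75, adjusted p = 2.52e-07 in edgeR's quasi-likelihood F test, adjusted by Benjamini-Hochberg over all genes tested). CPM is the count of a gene rescaled to a common library size, after TMM scaling, which corrects for differences in library composition. The 14 pluripotency markers all passed the filter, with at least 1983 counts in every library, and their summed level was 8630 to 8820 CPM in WT and 8130 to 8230 CPM in S6K1-/- hESCs, with 3 markers lower and 2 higher at an adjusted p of 0.05. DNMT3B had the smallest adjusted p of those lower (log2 fold change -0.35, adjusted p = 4.88e-05 in the edgeR fit) and UTF1 of those higher (log2 fold change 0.41, adjusted p = 0.00170). Among markers of other cell types, the summed level of 8 endoderm markers was 9.04 to 11.6 CPM in WT and 4.64 to 6.09 CPM in S6K1-/- hESCs, with TTR at 0 in every library. FOXA2 held the largest part of it, with 6.09 CPM in WT and 3.32 CPM in S6K1-/- hESCs (adjusted p = 0.00108 in the edgeR fit). The 8 amnion and trophoblast markers summed to 20.7 to 22.5 CPM in WT and 17.8 to 19.8 CPM in S6K1-/- hESCs. Of these, KRT7 went from 5.03 to 2.84 CPM (adjusted p = 0.00103 in the edgeR fit), while GABRP, the most abundant, had 15.3 and 15 CPM. The 9 mesoderm and mesenchyme markers summed to 16.1 to 17 and 17.5 to 19.2 CPM, mostly MIXL1 (11 and 12.9 CPM), with HAND1 at 0. The 9 neuroectoderm markers summed to 479 to 502 and 470 to 489 CPM. NES made up most of the last sum, with 442 CPM in WT and 424 CPM in S6K1-/- hESCs, while PAX6 rose from 4.47 to 7.58 CPM (adjusted p = 2.69e-04 in the edgeR fit) and SOX1 from 0.263 to 0.648 CPM (adjusted p = 0.0174). Of the 5 neuroectoderm markers tested, 2 had a log2 fold change below 0, NES and ZIC1. ZIC1 went from 17.6 to 16 CPM (adjusted p = 0.238 in the edgeR fit). OTX1, which did not pass the filter, had 13, 14 and 7 counts in WT and 2, 1 and 2 counts in S6K1-/- libraries. The groups did not overlap for ZIC1 or OTX1. The part of these shifts in the values below was not tested, and in bulk RNA fewer cells of a type and less RNA per cell cannot be told apart.

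Levels of the Polycomb, trithorax and SWI/SNF genes differed little between WT and S6K1-/- hESCs. At the study's threshold, an adjusted p of 0.001, EZH2 was higher and no member was lower, where 3.96% of all genes tested passed, 1.42% as higher and 2.54% as lower. At an adjusted p of 0.05, 5 members were higher (EZH2, SUZ12, RBBP4, ARID1A and ARID2) and CBX7 was lower, against 13.8% of all genes tested, 5.47% higher and 8.31% lower. Of the 45 members tested, 14 had a log2 fold change below 0 and 31 had one above 0. The fitted changes ranged from -0.48 for BMI1 to 0.49 for PHF1, both among the members with the fewest counts, with a median of 0.053 beside -0.002 over all genes tested. The 3 libraries of a genotype stood wholly above or below the others for 18 members, 13 of them higher and 5 lower in S6K1-/- hESCs, or 40% of the members tested beside 30.7% of all genes tested. At an unadjusted p of 0.05, 8 members were lower and 14 were higher, where 26.4% of all genes tested passed in either direction.

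A p that misses the threshold does not show that levels were alike, so the 95% interval of each log2 fold change was read as well. For 27 members (60%) both bounds of the interval lay within a 1.2-fold difference, beside 41.7% of all genes tested. Within 1.5-fold lay the intervals of 42 members (93.3%) and of 71.2% of all genes tested. The 3 members outside this range were PHF1, BMI1 and CBX7. The members were also counted more deeply than most genes, with a median of 1570 counts in WT libraries against 304 over all genes tested, and their median standard error was 0.0522 against 0.0828.

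**Figure D1:**
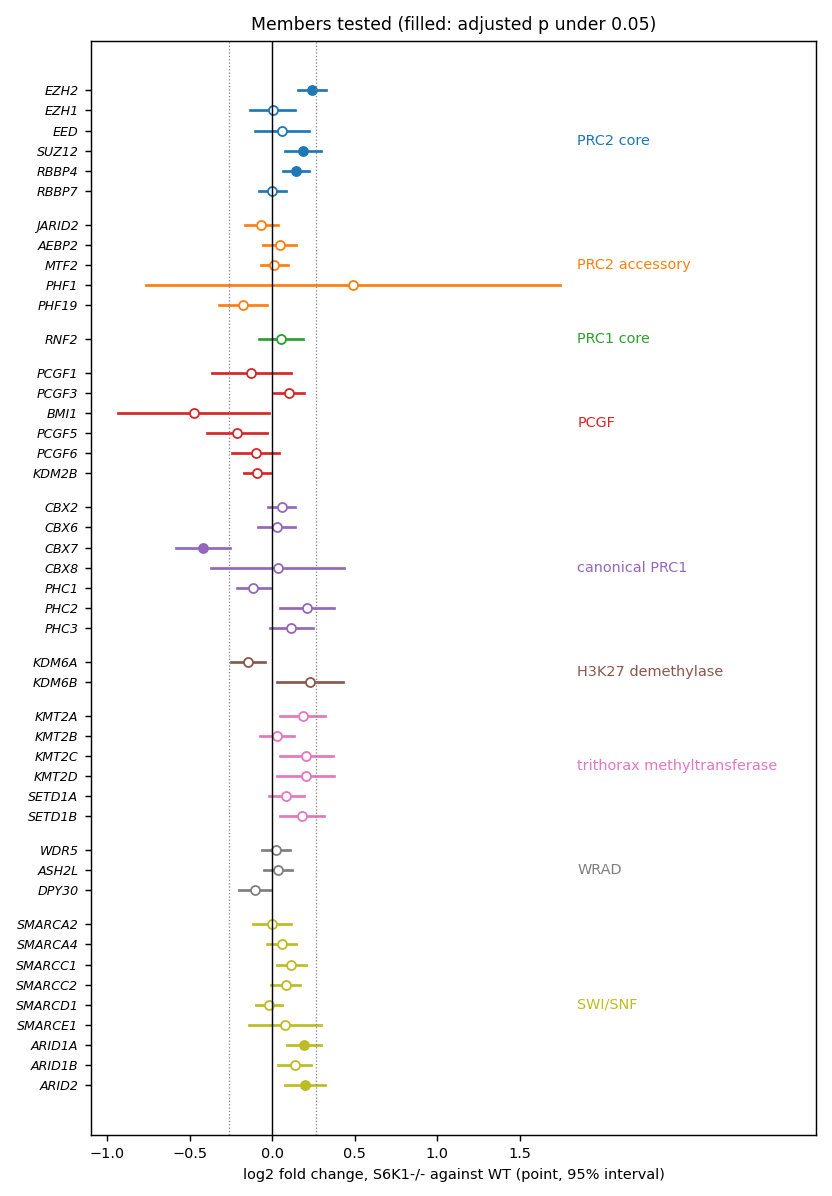
Log2 fold change of each of the 45 members tested (horizontal axis, S6K1-/- against WT) with its 95% interval, grouped by complex (WRAD stands for the shared subunits of the KMT2 and SETD1 complexes); filled points passed an adjusted p of 0.05, and dotted lines mark a 1.2-fold difference. Most intervals lie close to 0, CBX7 lies apart on the lower side, and BMI1, CBX8 and PHF1 have the widest intervals.

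EZH2, the main H3K27 methyltransferase of PRC2, was the 1 member past the study's threshold. It lies on the minus strand of chromosome 7 of GRCh38, from 148807257 to 148884321. Its level was 65.2, 64.4 and 63.6 CPM in WT replicates 1, 2 and 3, and 75.8, 74.8 and 77.5 CPM in S6K1-/- replicates 1, 2 and 3. The groups did not overlap, and the spread within each was small beside the gap between them. From 64.4 ± 0.802 CPM (SD, n = 3) in WT, EZH2 rose to 76.0 ± 1.32 CPM (SD, n = 3) in S6K1-/- hESCs, an increase of 18.1% (log2 fold change 0.24, standard error 0.040, 95% interval 0.154 to 0.325, adjusted p = 7.67e-04 in the edgeR fit). Its call lay close to the threshold. With 1 library left out in turn the adjusted p in the edgeR fit ranged from 0.00144 to 0.00517, so that leaving out any of the 6 libraries ended the call at 0.001, while the log2 fold change over 12 alternatives stayed between 0.22 and 0.26 and passed 0.05 in all 12.

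The promoter of EZH2 is shown because it differs from most promoters in the number of CCAAT boxes, the pentamer bound by the factor NF-Y. The 250 bases before the RefSeq start on GRCh38.p14 (chr7:148884292-148884541, minus strand) hold CCAAT on either strand 4 times, a number reached by 254 of 27305 promoters (0.93%) and by no other of the 40 members with a promoter in the table. Capitals mark CCAAT or its complement ATTGG.
EZH2: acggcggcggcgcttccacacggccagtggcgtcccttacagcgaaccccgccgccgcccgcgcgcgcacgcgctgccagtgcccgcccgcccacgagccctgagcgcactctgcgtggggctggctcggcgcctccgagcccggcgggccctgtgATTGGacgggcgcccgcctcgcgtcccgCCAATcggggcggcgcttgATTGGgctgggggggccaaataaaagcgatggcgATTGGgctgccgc
Of the 40 members, 17 (42.5%) held CCAAT in this window, beside 33% of all promoters. The hexamer GGGCGG, bound by Sp1, was present in 30 of the 40 (75%) and in 42.3% of all promoters, CACGTG (the E-box) in 7 and in 6.49%, and TTTCCCGC or TTTGGCGC, 8-base forms of the E2F site, only in SUZ12 and in 1.96%. Each motif was searched on both strands. A match describes these letters and does not show that a factor was bound.

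SUZ12 and RBBP4, a scaffold subunit and a histone-binding subunit of PRC2, were higher in S6K1-/- hESCs at the wider threshold. SUZ12 measured 67.4, 61.2 and 67.3 CPM in the WT libraries and 75.7, 69.6 and 77.7 CPM in the S6K1-/- libraries. The lowest S6K1-/- value stood just above the highest WT value. The log2 fold change was 0.19 (standard error 0.052, adjusted p = 0.0265 in the edgeR fit), and it missed 0.05 without WT replicate 2 (adjusted p = 0.0839 in the edgeR fit) and without S6K1-/- replicate 1 or 3 (0.0998 and 0.0996). RBBP4 measured 320, 326 and 325 CPM in WT and 355, 354 and 362 CPM in S6K1-/- hESCs. These groups were well apart in relation to their spread, at 324 ± 3.16 and 357 ± 4.48 CPM (SD, n = 3). RBBP4 rose by 10.3% (log2 fold change 0.14, standard error 0.037, adjusted p = 0.0191 in the edgeR fit), with adjusted p = 0.0567 without WT replicate 1 and 0.0652 without S6K1-/- replicate 1. Over 22.8% of its exons RBBP4 overlaps SYNC on the opposite strand, whose own log2 fold change was 0.11 (adjusted p = 0.138 in the edgeR fit), and the strand setting of the counting is not given in the sources used here.

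The other core subunits of PRC2 did not pass either threshold. EZH1, the paralog of EZH2, measured 28.3 CPM in both groups, with a 95% interval of the log2 fold change from -0.136 to 0.140. For RBBP7, the paralog of RBBP4, the interval was -0.083 to 0.080 around 295 CPM in WT and 294 CPM in S6K1-/- hESCs. EED, which binds the trimethyl mark that PRC2 leaves, had a wider interval of -0.103 to 0.221 at 16.7 CPM in WT and 17.5 CPM in S6K1-/- hESCs.

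**Figure D2:**
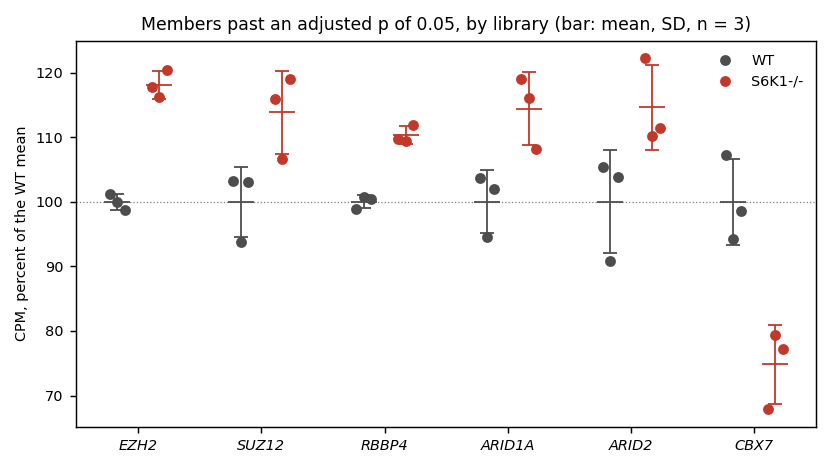
Level in each library as a percentage of the WT mean (vertical axis) for the 6 members past an adjusted p of 0.05, with points for libraries and bars for the mean and SD (n = 3). The S6K1-/- points lie above all WT points for EZH2, SUZ12, RBBP4, ARID1A and ARID2, and below them for CBX7.

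Subunits that define the variants of PRC2 did not differ at either threshold. JARID2, which marks the PRC2.2 variant and was one of the most abundant members, measured 647, 597 and 671 CPM in WT and 618, 609 and 602 CPM in S6K1-/- hESCs. WT replicate 2 was the lowest of all 6 libraries, so that the groups overlapped (95% interval of the log2 fold change -0.164 to 0.032). AEBP2, the partner of JARID2 in that variant, and MTF2, a Polycomb-like subunit of PRC2.1, had intervals of -0.054 to 0.143 and -0.070 to 0.096. PHF19, another Polycomb-like subunit, had 28.0 CPM in WT and 24.7 CPM in S6K1-/- hESCs. Its groups did not overlap, and its log2 fold change of -0.18 did not pass (adjusted p = 0.104 in the edgeR fit) and was -0.10 without S6K1-/- replicate 3. The remaining accessory subunits, PHF1 and EPOP, are among the members whose counts were close to 0 or erratic, and are described with them.

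In PRC1, CBX7 was the member called, as lower at the wider threshold. CBX7 is a chromodomain protein that binds trimethylated H3K27 and brings canonical PRC1 to it, and it lies on the minus strand of chromosome 22 from 39120167 to 39152680. Its level was 19.6, 17.2 and 18.0 CPM in the WT libraries and 12.4, 14.5 and 14.1 CPM in the S6K1-/- libraries. The highest S6K1-/- library stood below the lowest WT library. From 18.3 ± 1.19 CPM (SD, n = 3) CBX7 fell to 13.7 ± 1.12 CPM (SD, n = 3), a change of -25.3% (log2 fold change -0.42, standard error 0.078, 95% interval -0.587 to -0.255). Its adjusted p of 0.00168 in the edgeR fit missed the study's threshold and passed 0.05, as it did in all 12 alternatives. With 1 library left out in turn, it ranged from 0.00134 to 0.0124. On the opposite strand the lncRNA ENSG00000279833 overlaps 67.3% of its coding bases, and reads of the pair could not be told apart without the strand setting.

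The CBX7 promoter is shown beside that of EZH2, since these were the members with the smallest adjusted p in each direction. Its 250 bases (chr22:39152681-39152930, minus strand, GRCh38.p14) hold CCAAT 1 time and GGGCGG, on either strand, 8 times. Capitals again mark CCAAT.
CBX7: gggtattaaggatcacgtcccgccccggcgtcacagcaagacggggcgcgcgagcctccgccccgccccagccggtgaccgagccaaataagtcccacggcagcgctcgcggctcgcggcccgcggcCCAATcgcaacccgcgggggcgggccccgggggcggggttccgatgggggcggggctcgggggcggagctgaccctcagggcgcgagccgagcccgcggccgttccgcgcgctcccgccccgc
G and C made up 78.8% of this window and 75.6% of that of EZH2.

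The other CBX proteins of PRC1 gave no call. CBX2, the most abundant of them, measured 143 CPM in WT and 149 CPM in S6K1-/- hESCs, with groups that did not overlap and an interval of -0.025 to 0.140 for the log2 fold change. CBX6 had an interval of -0.087 to 0.140. CBX8 had 28 to 40 counts per library, which left an interval of -0.374 to 0.437. The Polyhomeotic subunits, which polymerise PRC1, did not pass either threshold. PHC1 measured 668, 604 and 668 CPM in WT and 611, 595 and 585 CPM in S6K1-/- hESCs, with overlap at WT replicate 2 (log2 fold change -0.12, adjusted p = 0.118 in the edgeR fit). Without WT replicate 2 the adjusted p of PHC1 was 0.0157. PHC2 had 15.8 CPM in WT and 18.3 CPM in S6K1-/- hESCs (log2 fold change 0.21, adjusted p = 0.0921 in the edgeR fit, and 0.13 without S6K1-/- replicate 2), and PHC3 had an interval of -0.015 to 0.244.

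Within 100-base stretches of its exons, 68.9% of PHC1 also occurs elsewhere on the primary chromosomes. PHC1P1, annotated as a processed pseudogene of PHC1, had 1263 to 1568 counts per library, and its log2 fold change was -0.055 (adjusted p = 0.673 in the edgeR fit). How reads with more than 1 match were assigned is not given in the sources used here, so the level of PHC1 is uncertain. On the opposite strand M6PR overlaps 18% of the exons of PHC1 and had a log2 fold change of -0.14 (adjusted p = 0.0626 in the edgeR fit), with groups that did not overlap.

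The PCGF proteins each define a variant of PRC1, and KDM2B brings the PCGF1 variant to CpG islands. Of the 6 tested in this group, 5 had a log2 fold change below 0, with a median of -0.11, and none passed a threshold. PCGF5 measured 8.87, 8.62 and 8.74 CPM in WT and 7.62, 7.23 and 7.76 CPM in S6K1-/- hESCs. KDM2B measured 132, 131 and 132 CPM in WT and 126, 122 and 123 CPM in S6K1-/- hESCs. Neither gene had overlapping groups, with log2 fold changes of -0.22 for PCGF5 and -0.093 for KDM2B (adjusted p = 0.112 and 0.123 in the edgeR fit). PCGF1 and PCGF6, the latter part of a variant with MGA and E2F6, had fitted changes of -0.13 (-0.033 without WT replicate 3 and -0.063 without S6K1-/- replicate 2) and -0.10 (-0.065 without S6K1-/- replicate 3), and PCGF3 was the exception with 0.10 and groups that did not overlap. RNF2, the RING-finger ubiquitin ligase of PRC1, had an interval of -0.078 to 0.184.

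The H3K27 demethylases did not pass either threshold. KDM6A measured 111, 102 and 115 CPM in WT and 104, 96.5 and 96.6 CPM in S6K1-/- hESCs, and KDM6B measured 10.1, 10.9 and 9.30 CPM in WT and 11.9, 13.0 and 10.5 CPM in S6K1-/- hESCs. In both genes 1 library of each group crossed into the range of the other group. The log2 fold changes were -0.15 for KDM6A and 0.23 for KDM6B (adjusted p = 0.0630 and 0.127 in the edgeR fit). KDM6A passed 0.05 in 4 of 12 alternatives, with the smallest adjusted p, 0.00921, without WT replicate 2.

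All 6 trithorax methyltransferases had fitted changes above 0, with a median of 0.18, and none passed a threshold. KMT2A, which maintains HOX expression, measured 102, 84.5 and 105 CPM in WT and 114, 110 and 106 CPM in S6K1-/- hESCs. KMT2C, an enhancer methyltransferase, measured 75.1, 63.4 and 81.5 CPM in WT and 90.5, 85.3 and 77.5 CPM in S6K1-/- hESCs. KMT2D, its paralog, measured 152, 117 and 152 CPM in WT and 168, 168 and 146 CPM in S6K1-/- hESCs. In all 3 genes WT replicate 2 was the lowest library, and only for KMT2A did the groups not overlap. The log2 fold changes were 0.18 for KMT2A, 0.21 for KMT2C and 0.20 for KMT2D (adjusted p = 0.0735, 0.0860 and 0.119 in the edgeR fit). Without WT replicate 2 they were 0.094, 0.11 and 0.089. Without WT replicate 3 they were 0.25, 0.29 and 0.27, and KMT2A and KMT2C passed 0.05 (adjusted p = 0.0317 and 0.0244 in the edgeR fit). SETD1B, which did not have this low value in WT replicate 2, measured 28.1, 26.9 and 25.1 CPM in WT and 31.0, 31.3 and 28.5 CPM in S6K1-/- hESCs (log2 fold change 0.18, adjusted p = 0.0685 in the edgeR fit). Its adjusted p was 0.0495 without WT replicate 1 and 0.0434 without S6K1-/- replicate 3. KMT2B and SETD1A had intervals of -0.072 to 0.132 and -0.021 to 0.190.

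The low values of WT replicate 2 went with the length of the genes. The difference of WT replicate 2 from the mean of the other WT libraries was -0.37 on the log2 scale for KMT2D, -0.30 for KMT2C and -0.29 for KMT2A, which have 25436, 53322 and 31469 exonic bases. Across the 45 members, this difference had a Spearman correlation of -0.376 with exonic length, and across 15736 genes one of -0.315. The fitted change of S6K1-/- against WT had a correlation of 0.341 with length across the members and of 0.096 across the genes. Both measures hold WT replicate 2, and genes within a library are not independent, so these values describe the libraries. After the trend over 20 bins of length was removed, the log2 fold change was 0.21 for EZH2, 0.16 for ARID1A, 0.19 for SUZ12 and -0.43 for CBX7, and 0.15, 0.17 and 0.17 for KMT2A, KMT2C and KMT2D. The trend removed was that of the fitted change over all genes, which does not take out the deviation of WT replicate 2. Without that library the changes of KMT2A, KMT2C and KMT2D were 0.094, 0.11 and 0.089.

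The subunits shared by the KMT2 and SETD1 complexes were close to level. WDR5 and ASH2L, which hold the catalytic subunit in its active form, had intervals of -0.065 to 0.105 and -0.049 to 0.118. DPY30 measured 56.3 CPM in WT and 52.3 CPM in S6K1-/- hESCs, with groups that did not overlap (log2 fold change -0.11, adjusted p = 0.131 in the edgeR fit). Of the exonic stretches of DPY30, 34% also occur elsewhere on the primary chromosomes, and 50.8% of its exonic bases are shared with MEMO1 on the same strand.

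In the SWI/SNF complexes, 7 of the 9 members tested had a fitted change above 0, and ARID1A and ARID2 passed the wider threshold. ARID1A, the DNA-binding subunit of canonical BAF, measured 182, 166 and 179 CPM in WT and 209, 204 and 190 CPM in S6K1-/- hESCs. All S6K1-/- libraries stood above all WT libraries. The log2 fold change was 0.19 (standard error 0.047, adjusted p = 0.0128 in the edgeR fit), and without S6K1-/- replicate 1 the adjusted p was 0.0763. ARID2, the corresponding subunit of PBAF, measured 81.3, 70.1 and 80.1 CPM in WT and 94.3, 85.0 and 86.0 CPM in S6K1-/- hESCs. The groups did not overlap here either, with WT replicate 2 the lowest library. For ARID2 the log2 fold change was 0.20 (standard error 0.057, adjusted p = 0.0313 in the edgeR fit), with adjusted p = 0.0954 without WT replicate 2, 0.158 without S6K1-/- replicate 1 and 0.0530 when scaled by library totals. ARID1B, the paralog of ARID1A, had a log2 fold change of 0.14 and groups that did not overlap (adjusted p = 0.0679 in the edgeR fit).

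The ATPases and scaffold subunits of SWI/SNF did not pass either threshold. SMARCA4 (BRG1), the main ATPase in embryonic stem cells, measured 395, 388 and 380 CPM in WT and 413, 406 and 390 CPM in S6K1-/- hESCs, with an interval of -0.030 to 0.141. SMARCA2 (BRM), the alternative ATPase, was at 34.1 CPM in both groups, with an interval of -0.116 to 0.116. SMARCC1 (BAF155), characteristic of the BAF form found in embryonic stem cells, measured 492, 467 and 499 CPM in WT and 538, 528 and 512 CPM in S6K1-/- hESCs. Its groups did not overlap, and its log2 fold change of 0.11 did not pass (adjusted p = 0.0851 in the edgeR fit, and 0.0329 in DESeq2's Wald test). SMARCC2 (BAF170) and SMARCD1 had intervals of -0.009 to 0.169 and -0.100 to 0.057.

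The ratio of 2 paralogs within a library does not depend on how libraries are scaled. Of 11 pairs, 9 could be measured. With 3 libraries against 3, the smallest p of the two-sided exact permutation test is 0.1, so no pair could pass 0.05, and the adjusted p over the 9 pairs was 0.225 for those at 0.1. The log2 ratio of EZH2 to EZH1 counts was 1.12, 1.30 and 1.15 in WT and 1.35, 1.40 and 1.52 in S6K1-/- libraries. This corresponds to 2.28 EZH2 counts per EZH1 count in WT and 2.69 in S6K1-/- hESCs, as geometric means, with groups that did not overlap (exact permutation p = 0.1). RBBP4 over RBBP7 went from 0.136 ± 0.029 to 0.279 ± 0.008 on the log2 scale (SD, n = 3), also without overlap (exact permutation p = 0.1). KDM6A over KDM6B went the opposite way, from 3.44 ± 0.197 to 3.07 ± 0.162 on the log2 scale (SD, n = 3; exact permutation p = 0.1), which is 10.9 KDM6A counts per KDM6B count in WT and 8.42 in S6K1-/- hESCs. The ratio of SMARCC1 to SMARCC2 did not overlap either, but shifted by only 0.034. For KMT2C over KMT2D the shift was 0.001, for ARID1A over ARID1B 0.056, for SMARCA4 over SMARCA2 0.056, for SETD1A over SETD1B -0.099 and for KMT2A over KMT2B 0.16, all with overlapping groups. With 1 library left out in turn, the shift ranged from 0.189 to 0.291 for EZH2 over EZH1, from 0.130 to 0.159 for RBBP4 over RBBP7 and from -0.475 to -0.279 for KDM6A over KDM6B. Several of the smaller shifts rested on 1 library. Without WT replicate 2 that of KMT2A over KMT2B was 0.095, without WT replicate 3 those of SETD1A over SETD1B and SMARCA4 over SMARCA2 were -0.051 and 0.006, without S6K1-/- replicate 1 that of SMARCC1 over SMARCC2 was 0.019, and without S6K1-/- replicate 2 that of ARID1A over ARID1B was 0.023.

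**Figure D3:**
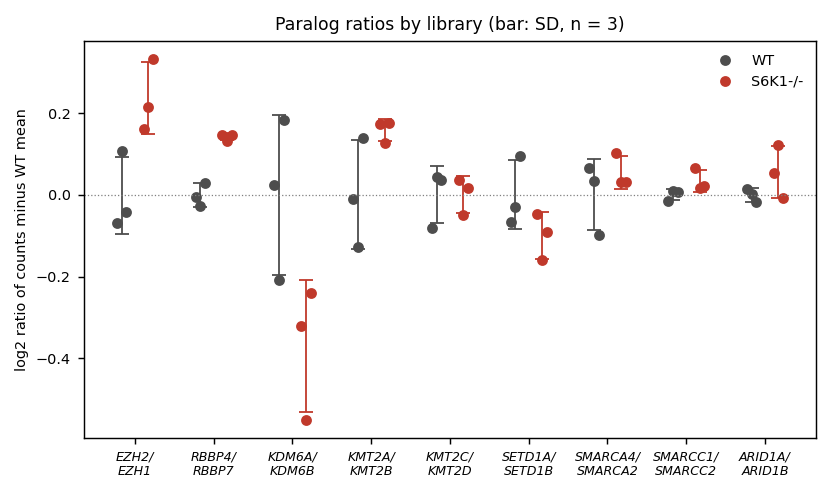
Log2 ratio of the counts of 2 paralogs in each library after subtraction of the WT mean (vertical axis) for 9 pairs, with points for libraries and bars for the SD (n = 3). The groups are apart for EZH2/EZH1 and RBBP4/RBBP7 (higher in S6K1-/-) and for KDM6A/KDM6B (lower), and by only 0.034 for SMARCC1/SMARCC2.

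Levels of different genes are compared here per length, as RPKM, the CPM divided by the exonic length in kilobases. This length merges the annotated exons of all transcripts of a gene, whether or not they are used in these cells. The ratios and ranks of genes by RPKM therefore depend on the annotation as well as on the counts. Over the members tested, the WT level ranged from 0.359 RPKM for CBX8 to 105 RPKM for PHC1, with a median of 5.98. PHC1 and JARID2 (102 RPKM) stood above the rest, although the value of PHC1 is uncertain for the reason given above. Next came SMARCC1 with 63.7, SMARCD1 with 40.4, RBBP7 with 40.2 and RBBP4 with 34.2 RPKM. SMARCD1 and RBBP7 did not differ beyond their spread, with 40.1 to 40.6 and 39.5 to 41.2 RPKM in the WT libraries. The catalytic subunits of PRC2 lay lower, EZH2 at 5.98 RPKM and EZH1 at 4.05 RPKM in WT. In S6K1-/- hESCs they were at 7.05 and 4.05 RPKM. Among SWI/SNF ATPases, SMARCA4 had 24.9 RPKM and SMARCA2 1.79 RPKM, and ARID1A had 11.0 RPKM where ARID1B had 1.92 RPKM. Before division by length ARID1A and ARID1B were closer, at 176 and 88.2 CPM in WT, with 15939 and 45931 exonic bases.

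The counts of several members could not be read as levels of expression. RING1, the paralog of RNF2, had 0, 0 and 0 counts in WT and 1, 5 and 0 counts in S6K1-/- libraries. SMARCB1, the core subunit of BAF also known as SNF5, had 2, 2 and 0 counts in WT and 0, 0 and 1 counts in S6K1-/- libraries. PCGF2 (MEL18), the paralog of BMI1, had at most 5 counts in a library, and EPOP, an accessory subunit of PRC2.1, had at most 1. These are the 4 members that did not pass the filter. PHF1, the Polycomb-like paralog of MTF2 and PHF19, passed it with 88, 20 and 42 counts in WT and 29, 158 and 17 counts in S6K1-/- libraries, a spread within groups that left an interval of -0.768 to 1.742 for its log2 fold change. Without S6K1-/- replicate 2 the log2 fold change of PHF1 was -1.03 in place of 0.49, so that 1 library set its direction.

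These 5 members share a feature of the reference genome. The GRCh38 reference used here holds 261 alternate contigs, which repeat parts of the chromosomes in another form. For RING1, SMARCB1, PCGF2, EPOP and PHF1, every 100-base stretch of exon (100%) had an exact copy on such a contig. The next member was PCGF6 with 8.51% of its stretches, then KDM6A and KMT2C with less than 1%, and for 41 members there was none. Among genes of the other lists, CSNK2B had copies of 93.9% of its stretches and 0 to 3 counts in each library, whereas POU5F1 had copies of 70.9% and a level of 181 CPM in WT and 177 CPM in S6K1-/- hESCs, and FBRSL1 had copies of 44.7% and 1604 to 1985 counts. These 3 genes are named after their values were seen. An aligner that is given the contigs finds more than 1 place for such reads. Whether the authors' index held them, and how reads with several places were counted, is not given in the sources used here, and the part of these copies in the low counts was not tested.

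The coding starts of the 4 members that did not pass the filter are shown because they lie in these repeated regions. Each is the first 60 coding bases on GRCh38, at chr22:23787170-23787229 (plus strand, exon 1) for SMARCB1, chr6:33208823-33208882 (plus strand, exon 2) for RING1, chr17:38740343-38740402 (minus strand, exon 3) for PCGF2 and chr17:38674436-38674495 (minus strand, exon 1) for EPOP, with the start codon in capitals.
SMARCB1: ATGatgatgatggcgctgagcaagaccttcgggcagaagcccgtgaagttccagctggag
RING1: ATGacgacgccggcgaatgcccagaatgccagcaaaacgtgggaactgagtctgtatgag
PCGF2: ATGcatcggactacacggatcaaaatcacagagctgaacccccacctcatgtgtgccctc
EPOP: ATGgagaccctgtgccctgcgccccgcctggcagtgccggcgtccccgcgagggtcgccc
Each of these sequences occurred 1 time on its own chromosome. The sequence of RING1 had exact copies on 5 alternate contigs, and the other 3 had a copy on 1 contig each.

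Low counts without copies on alternate contigs were found for BMI1 and SMARCE1, and also for CBX8 (28 to 40 counts) and PCGF1 (121 to 157 counts). BMI1 and SMARCE1 are described here because they also share coding bases with another gene. BMI1 (PCGF4), a PCGF protein of canonical PRC1 like PCGF2, had 42, 56 and 49 counts in WT and 41, 24 and 36 counts in S6K1-/- libraries. The groups overlapped, and the log2 fold change of -0.48 (standard error 0.214) did not pass (adjusted p = 0.170 in the edgeR fit). Without S6K1-/- replicate 2, its lowest library, the log2 fold change of BMI1 was -0.26. All 978 coding bases of BMI1 (100%) are also exons of the readthrough gene COMMD3-BMI1 on the same strand, which had 0 counts in every library. SMARCE1 (BAF57) had 154 to 192 counts per library, and 70.5% of its coding bases are also exons of a readthrough gene on the same strand, ENSG00000264058. Of KMT2A, 30.5% of the coding bases are shared in this way with ENSG00000285827. How the counting treated reads on 2 genes is not given in the sources used here.

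**Figure D4:**
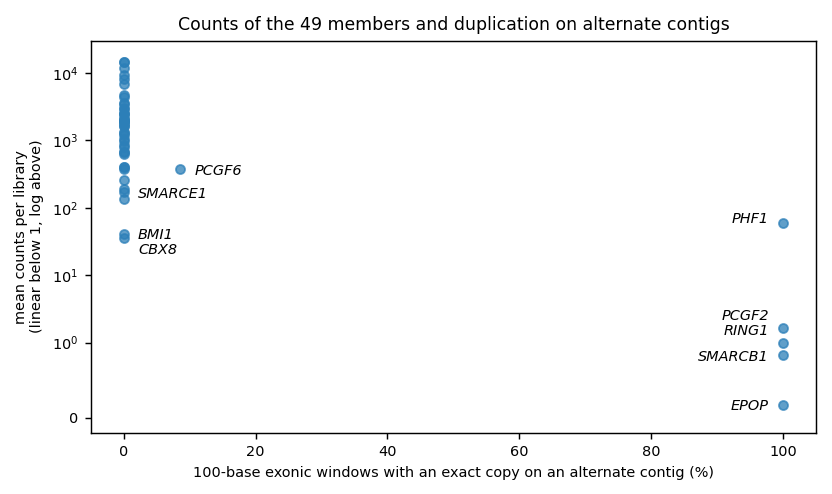
Mean counts per library of the 49 members (vertical axis, linear below 1 and log above) against the share of 100-base exonic stretches with an exact copy on an alternate contig (horizontal axis, %). The 5 members at 100% (PHF1, RING1, PCGF2, SMARCB1 and EPOP) hold few counts, and all but PHF1 lie below every other member, while CBX8 and BMI1 have few counts at 0%.

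Other subunits of the same complexes, with related methyltransferases and demethylases, were taken from lists. Of 33 other Polycomb genes tested, 2 were higher and none was lower at an adjusted p of 0.001, where 1.42% of all genes tested were higher. SFMBT2, a Polycomb protein with MBT repeats, measured 14.8, 13.9 and 15.6 CPM in WT and 19.0, 21.1 and 20.2 CPM in S6K1-/- hESCs (log2 fold change 0.45, adjusted p = 4.48e-04 in the edgeR fit). LCOR, whose locus also encodes the PRC2.1 subunit PALI1, measured 46.8, 44.6 and 48.9 CPM in WT and 57.8, 58.4 and 55.5 CPM in S6K1-/- hESCs (log2 fold change 0.29, adjusted p = 6.69e-04 in the edgeR fit). In both genes the groups were well apart. With 1 library left out in turn, 0 to 1 genes of all the other lists were higher at 0.001, so at least 1 of these calls was lost each time. With library totals and with a block for the replicate number 1 gene was higher. At an adjusted p of 0.05 a total of 5 of these genes were higher, the others being BCORL1, MGA and FOXK1. The KMT2 list held complex subunits and the related proteins KMT2E and ASH1L. Among its 12 genes, 2 were higher at 0.05 (PAXIP1 and KMT2E), among 19 other SWI/SNF subunits 3 (BRD9, PBRM1 and BCL11B), and among 13 other H3K4 and H3K36 enzymes 2 (KDM5A and NSD2). None was lower, where 5.47% of all genes tested were higher and 8.31% were lower. Those not past 0.001 are named after their values were seen. The median log2 fold changes were 0.075, 0.078, 0.053 and 0.065 in these lists, beside 0.053 for the 45 members tested and -0.002 for all genes tested. Groups did not overlap for 54.5%, 41.7%, 47.4% and 53.8% of their genes tested, beside 40% of the members and 30.7% of all genes tested.

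HOX genes are known targets of Polycomb silencing in embryonic stem cells. Of 39 listed, 34 had at most 3 counts in every library, 17 of these had 0 counts in all 6 libraries, and 4 passed the filter (HOXB1, HOXB2, HOXB3 and HOXB13). No HOX gene passed 0.001. HOXB3, named after its values were seen, had 20, 26 and 24 counts in WT and 45, 45 and 33 counts in S6K1-/- libraries. The groups did not overlap, and the log2 fold change was 0.87 (standard error 0.205, adjusted p = 0.00988 in the edgeR fit). The summed level of the HOX genes was 6.28 to 7.89 CPM in WT and 8.26 to 9.94 CPM in S6K1-/- hESCs. HOXB13 held the largest part of this sum, with 3.84 CPM in WT and 5.19 CPM in S6K1-/- hESCs. Its groups overlapped (adjusted p = 0.0661 in the edgeR fit), so the sum does not describe the HOX genes as a class.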

How the data were processed

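Total RNA was made into stranded, poly(A)-selected libraries (TruSeq), 3 for WT and 3 for S6K1-/- hESCs, grouped by the labels. The authors trimmed the reads with Trim Galore 0.6.5, aligned them to GRCh38 with Bowtie2 2.4.5 and counted them with featureCounts, per the methods and the submitters' processing notes. Bowtie2 does not align across splice junctions. The annotation release, the strand setting and the treatment of reads with several places are not given in the sources used here. The authors deposited raw counts per gene symbol, without normalization. They also deposited their own DESeq2 comparison (mean scaled counts, log2 fold changes, standard errors, statistics and p-values), which was not used.

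Genes were kept with filterByExpr and tested with the quasi-likelihood F test of edgeR 4.0.16 (R 4.3.3) after TMM normalization, in a model of genotype alone. Benjamini-Hochberg adjustment ran over 19521 genes, with thresholds of 0.001, as in the study, and 0.05. The common dispersion was 0.00216. Standard errors were the log2 fold change over the square root of F, and 95% intervals used the total degrees of freedom of the fit. On simulated counts of this comparison, 114 of 200 genes changed by 0.5 on the log2 scale were called (19271 genes) and 169 of 200 changed by 1 (19263 genes), with 0 unchanged genes called. Every simulated gene had the common dispersion, without gene-wise spread or a length trend, so these numbers are not error rates of the real libraries. Both simulated sizes exceed the fitted change of every member. Alternatives were no filter on low counts, a minimum of 10 counts in each library, library totals, the size factors and the Wald test of DESeq2 1.42.0, a block for the replicate number and each library left out in turn. Paralog ratios of raw counts were compared with a two-sided exact permutation test.

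Positions, exonic lengths and overlaps came from GENCODE 44 on GRCh38, and promoters from RefSeq (GRCh38.p14), which held 40 of the 49 members. Exonic stretches were searched as exact 100-base windows over the whole reference. The members and lists were chosen with earlier results of these data known. Any member could be named, with values per library for those past a threshold, both genes of a paralog pair and the highest and lowest by RPKM. Values per library of other members, such as PCGF5 and KDM2B, were given after their values were seen. Of other lists, genes past 0.001 were named, at most 5 a list. UTF1, SOX1, NES, ZIC1, OTX1, GABRP, HOXB13 and those past 0.05 alone were named after their values were seen. Single-cell and ATAC sequencing of organoids was not analysed here.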

Additional observations from a re-analysis of the deposited data

How the results depend on the processing

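No member past an adjusted p of 0.05 turned direction under any alternative run, and the median log2 fold change of the members stayed between 0.032 and 0.070. At an adjusted p of 0.001 the numbers of calls moved as follows. With library totals and with the replicate block, 0 members were higher in place of 1, and 1 gene of the other complex and HOX lists was higher in place of 2. DESeq2's Wald test called 5 genes of these other lists higher. Without the filter on low counts, 1 member was lower and 5 were higher, 1 gene of the other lists was lower and 5 were higher, and over all genes 982 were lower and 591 higher, in place of 496 and 278. At an adjusted p of 0.05, 1 member was lower and 5 were higher, 13 genes of the other lists (HOXB3 and 12 genes of the complex and enzyme lists) were higher, and over all genes 1622 were lower and 1067 higher. Intervals of 42 members lay inside 1.5-fold. With each library left out in turn, 0 members and 0 to 1 genes of the other lists were higher, and over all genes 313 to 445 were lower and 175 to 235 higher. The lowest were 313 lower without S6K1-/- replicate 3 and 175 and 179 higher without S6K1-/- replicates 1 and 2. The causes were not tested.

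The call of EZH2 at 0.001 was lost in 8 of 12 alternatives, with adjusted p = 0.00169 in the edgeR fit both with library totals and with the replicate block. Without the filter, CBX7, KMT2C, KMT2D, ARID1A and ARID2 passed 0.001. Libraries with the same replicate number correlated at 0.005 to 0.039 in their deviations from the group means, and others at -0.069 to 0.038. Whether libraries of the same number share a batch was not tested. With the block, KMT2A, SETD1B, KDM6A and ARID1B passed 0.05 (adjusted p = 0.0449, 0.0456, 0.0410 and 0.0389 in the edgeR fit). Without the filter, KMT2A (0.00149), KDM6A (0.0219) and ARID1B (0.0445) passed 0.05 as well, and SETD1B did not (0.0565). KDM6A also passed it with library totals (0.0327). PHF1, BMI1 and CBX8, all with few counts, had the widest intervals, and PHF1 also the largest spread within groups. Without PHF1, BMI1 and SMARCE1, left out after seeing the data, the median was 0.049, and with the length trend removed, also chosen after seeing the data, it was 0.047.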
